A study of Setaria viridis with 40 samples.

Results

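The genes described here encode the subunits of both photosystems and of their light-harvesting antennae in *Setaria viridis*, with the factors that assemble photosystem I (PSI). They are the genes that the pathway list of the study places under LHCII, PSII Complex or PSI, without Sevir.3G162600 and Sevir.5G198100. Of 45 listed genes, 39 had 10 or more counts in 4 or more libraries and were analysed, out of 14293 genes that passed the same filter among 38239 in the files. They comprised 9 of 9 genes listed under LHCII, 9 of 12 under PSII Complex and 21 of 24 under PSI. By role, 5 encode the major trimeric antenna of photosystem II (PSII), 4 its minor antenna, 4 proteins of or beside the oxygen-evolving complex, 5 small or unnamed PSII subunits, 5 the PSI antenna (LHCI), 9 PSI core subunits and 7 PSI assembly factors. Their identifiers in the v2 genome annotation place 12 of them on chromosome 2, 6 on chromosome 5 and the others on the remaining chromosomes.

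Light energy captured by chlorophyll in the antenna proteins passes to the reaction centres, where PSII oxidises water and PSI reduces ferredoxin. The reaction centre proteins are encoded in the chloroplast, whereas the antenna proteins and many of the small subunits are encoded in the nucleus. Transcripts of these nuclear genes thus respond to light signals sent from the chloroplast and to the time of day. In leaves of C4 grasses such as *S. viridis* these complexes are shared unequally between mesophyll cells, rich in PSII, and bundle sheath cells, where PSI dominates.

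The study asked how leaves respond to 4 h of excess light or heat. Transcripts were measured in leaves of the ME034 accession in 10 conditions with 4 replicates each, where a replicate was pooled from the fourth fully expanded leaf of 2 plants (2 segments, each 2 cm long). High light (HL_1h, HL_2h, HL_4h) was 900 µmol photons m−2 s−1 at the growth temperature, and high temperature (HT_1h, HT_2h, HT_4h) was 40 °C at the growth light, each in a chamber of its own. Control plants stayed at 250 µmol photons m−2 s−1 and 31 °C and were sampled at the start (ctrl_0h) and beside the treatments (ctrl_1h, ctrl_2h, ctrl_4h). Treatment and chamber cannot be told apart, and high light and high temperature were set against the same control libraries.

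Levels are CPM (the count of a gene per 1000000 counts of its library), listed for replicates A, B, C and D in that order. Since the libraries read only the 3′ end of each mRNA and the values hold no gene length, levels are compared between conditions and not between genes. Changes are log2 fold changes ± SE from edgeR's quasi-likelihood test on counts, and a gene was called at a Benjamini-Hochberg adjusted p under 0.05 over all tested genes. The SE was derived as the absolute log2 fold change divided by the square root of the test's F statistic. In whole leaf segments, fewer cells of a type and less RNA per cell cannot be told apart.

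Total counts lay between 1422507 and 4901131 per library, with the lowest median, 2454168, at ctrl_0h. One count column was left out because its header names a high temperature library and its values match replicate D of HL_1h, so that tests at HL_1h rest on the 3 other libraries and CPM on 4. All 5 mesophyll and 5 bundle sheath marker genes were above 0 in every library. Scaling by total counts instead of trimmed means (TMM) shifted the median log2 fold change of all genes from 0.06 to 0.38 at HL_4h, and the split of all genes called there from 1930 up and 1797 down to 3913 up and 949 down. For the 39 photosystem genes this split was 3 up and 28 down with TMM and 5 up and 25 down with total counts. Whether libraries overlapped was judged on CPM, which are scaled by total counts, whereas the fold changes use TMM. The TMM factors were 1.13 to 1.46 at HL_4h and 0.92 to 1.11 at ctrl_4h. Most HL_4h levels thus stand higher against ctrl_4h in CPM than under TMM.

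Transcripts of most photosystem and antenna genes were lower in high light than in controls, and the number called down was larger at each later time. At HL_1h, 3 of the 39 genes were called down and 2 up, where 9.08% and 9.29% of all tested genes were called, shares that the 39 genes did not reach. At HL_2h, 22 genes were called down and 3 up, against 13.9% and 16.5% of all tested genes. At HL_4h, 28 were called down, 19 of them at least 2-fold, and 3 were called up, whereas 12.6% of all tested genes were called down and 13.5% up. The median log2 fold change of the 39 genes was -0.27 at HL_1h, -0.63 at HL_2h and -1.02 at HL_4h, beside 0.00, 0.02 and 0.06 over all tested genes.

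The order of the calls differed among the genes. LHCa4, LHCb6 and PsbP were called down at all 3 time points, 19 genes from 2 h on and 6 genes at 4 h only. LHCb7 and Psa2 were called up at all 3 time points, LHCa5 at 4 h only and Psa3 at 2 h only. The 7 genes with no call in high light were PsbW_A, PsaN and the assembly factors YCF4, PPD1, HCF101, CEST/Y3IP1 and PTAC4. The calls of LHCa4, LHCb6 and PsbP at HL_1h were lost without replicate B of HL_1h, that of PsbP also without replicate D of ctrl_1h, and all calls at HL_1h, LHCb7 and Psa2 included, in a fit of those groups only.

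**Figure D1:**
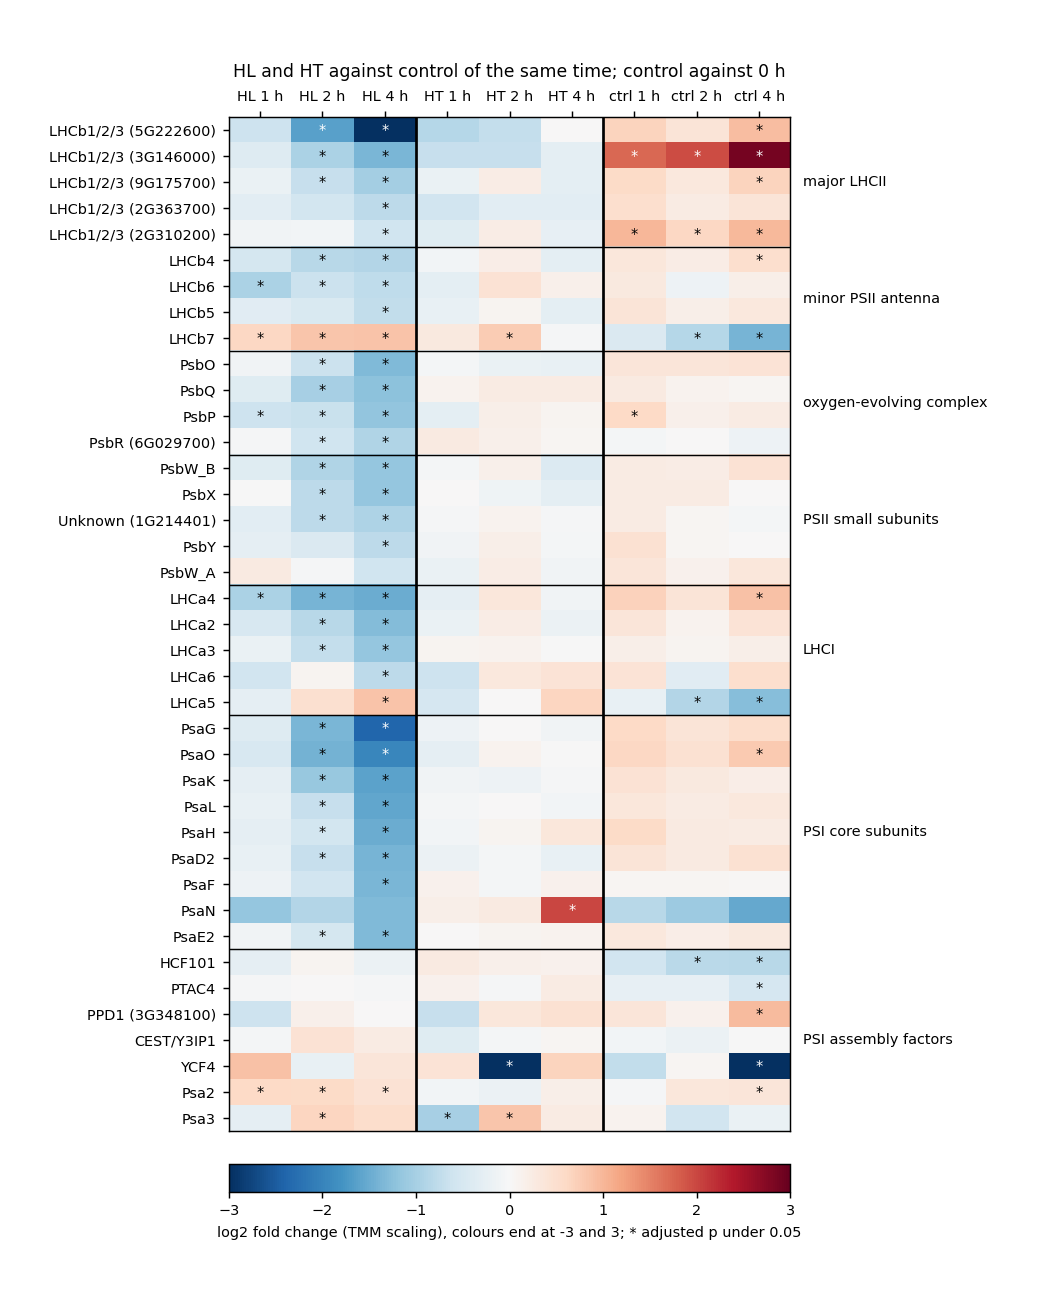
Log2 fold changes of the 39 genes (rows, by role) in high light and high temperature against the control of the same time and in later controls against ctrl_0h (columns), with colours that end at -3 and 3 and an asterisk for each call. At HL_4h, 28 genes were called down and 3 up, whereas 1 gene was called at HT_4h.

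Together the 39 genes held a large share of each library. They took up 15.7 ± 2.59% of the counts at HL_4h, 12.7 to 18.2% in single libraries, against 28.7 ± 3.13% at ctrl_4h, 24.6 to 32.1% in single libraries (SD, n = 4 each). The HL_4h libraries thus all lay below the ctrl_4h libraries. The PSI genes held 5.40 ± 1.01% of the counts at HL_4h, against 12.9 ± 1.77% at ctrl_4h, the PSII Complex genes 3.89 ± 0.449% at HL_4h against 6.57 ± 0.624% at ctrl_4h, and the LHCII genes 6.38 ± 1.15% at HL_4h against 9.21 ± 0.821% at ctrl_4h. These shares are descriptions without a test. At HT_4h the 39 genes held 28.8 ± 1.96%. In controls the share was 21.0 ± 1.12% at 0 h, 26.4 ± 2.28% at 1 h, 25.4 ± 1.42% at 2 h and 28.7 ± 3.13% at 4 h.

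**Figure D2:**
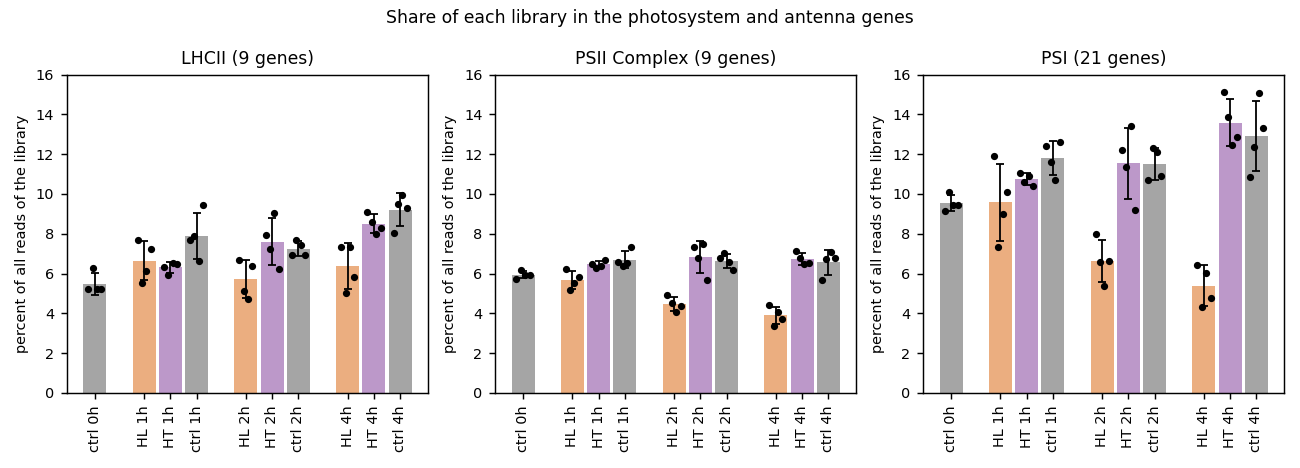
Percent of each library's counts in LHCII, PSII Complex and PSI genes by condition, with bars for the mean, error bars for the SD and points for the 4 libraries. PSI genes averaged 5.40% at HL_4h and 12.9% at ctrl_4h.

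The major antenna of PSII is built of LHCb1, LHCb2 and LHCb3 proteins, which bind most of the chlorophyll of PSII as trimers. The list gives 5 genes the shared name LHCb1/2/3. Their sequences were not compared here, and where copies are alike they may share reads, so that the values of single genes are uncertain. All 5 were called down at HL_4h, 3 at HL_2h and none at HL_1h.

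Sevir.5G222600 showed the widest change in high light among all 39 genes. At HL_4h it had 378, 186, 269 and 371 CPM, against 2008, 2984, 4471 and 2749 CPM at ctrl_4h. Every HL_4h library was thus below every ctrl_4h library, and the fit gave a 12.6-fold lower level, -3.66 ± 0.40 (SE, adjusted p = 4.61e-09). It had 2207, 809, 1651 and 2054 CPM at HL_1h, against 2809.8, 2858, 1564 and 2306 CPM at ctrl_1h. At HL_2h it had 1177, 522, 426 and 819 CPM, against 1422, 2497, 2732 and 1869.9 CPM at ctrl_2h. At 1 h the groups overlapped and the difference was -0.61 ± 0.40 (SE, adjusted p = 0.315), whereas at 2 h they did not and it was -1.63 ± 0.37 (SE, adjusted p = 7.58e-04). In high temperature the gene had 1468, 1101, 1787 and 837 CPM at HT_1h, 1027, 818, 2240.1 and 792 CPM at HT_2h and 3349, 3771, 2481 and 3918 CPM at HT_4h. At 0 h the controls had 1232, 2133, 1619.7 and 1541 CPM. Replicate C at HT_2h, 2240.1 CPM, stood above the other HT_2h libraries, and no high temperature contrast of this gene was called.

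The smallest change at HL_4h in this class was that of Sevir.2G310200. Its HL_4h libraries had 30760.2, 19963, 32751 and 24214 CPM and its ctrl_4h libraries 29892, 35011, 34520.1 and 34439 CPM. The groups overlapped through replicates A and C of HL_4h, and the change of -0.61 ± 0.20 (SE, adjusted p = 0.0245) was no longer called with total count scaling or when any of 5 single libraries was left out. At HL_1h it had 31561, 27792, 26617 and 30739 CPM, against 29034, 27428, 23960.5 and 41321 CPM at ctrl_1h. At HL_2h it had 31956, 23993, 22689 and 28465 CPM, against 25894, 27729, 25017 and 26041 CPM at ctrl_2h. These groups overlapped. High temperature libraries had 24261, 23459, 22859 and 23185 CPM at HT_1h, 30692, 26938, 34807 and 23981 CPM at HT_2h and 32246, 29725, 29795 and 29909 CPM at HT_4h. The ctrl_0h libraries, at 16794, 19430.2, 15534 and 15563 CPM, were the lowest of the 10 conditions.

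The other LHCb1/2/3 genes lay between these. Sevir.9G175700 ranged over 5626 to 7771 CPM at HL_4h, against 10655 to 11858 CPM at ctrl_4h, and Sevir.2G363700 over 2887 to 3992 CPM, against 4072 to 5529.5 CPM. Sevir.3G146000 changed by -1.37 ± 0.33 (SE, adjusted p = 0.00152) and Sevir.9G175700 by -1.02 ± 0.21 (SE, adjusted p = 3.08e-04) at HL_4h. Sevir.2G363700 changed by -0.78 ± 0.22 (SE, adjusted p = 0.00766). All 3 had their HL_4h libraries below their ctrl_4h libraries.

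The minor antenna proteins LHCb4, LHCb5 and LHCb6 link the trimers to the PSII core, and LHCb7 is a rarely expressed relative of them. LHCb4 (Sevir.2G362400), LHCb5 (Sevir.8G081900) and LHCb6 (Sevir.7G130100) were called down at HL_4h, while LHCb7 (Sevir.2G171200) was called up at all 3 times. LHCb4 had 11169, 7374, 10655 and 8319 CPM at HL_4h, against 12699, 14937, 14312 and 14091 CPM at ctrl_4h. LHCb5 had 8120.5, 6248, 8581 and 6478 CPM at HL_4h, against 8168, 10067, 11028 and 10232 CPM at ctrl_4h. The LHCb4 libraries did not overlap, at -0.88 ± 0.18 (SE, adjusted p = 2.67e-04), and those of LHCb5 did, at -0.73 ± 0.19 (SE, adjusted p = 0.00273). LHCb6, in contrast, was already called at HL_1h, where it had 5030.3, 2675, 4292 and 6635 CPM, against 6514, 10391, 6116 and 7909 CPM at ctrl_1h. Replicate D of HL_1h, which is not among the counts tested, overlapped the controls. The 3 tested HL_1h libraries share the second index code AK2941, while 2 of 4 ctrl_1h libraries have AK10751 (described with PsaN and YCF4). LHCb6 was called between these codes, at -0.47 (AK2941 minus AK10751). LHCb6 changed by -0.96 ± 0.25 (SE, adjusted p = 0.00575) at HL_1h, -0.65 ± 0.23 (SE, adjusted p = 0.0285) at HL_2h and -0.76 ± 0.23 (SE, adjusted p = 0.0130) at HL_4h. Its call at HL_4h was lost with total count scaling or without replicate C of ctrl_4h. On reads recovered from all 4 HL_1h libraries the change at HL_1h was -0.73 with an adjusted p of 0.0254 in edgeR's quasi-likelihood test.

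Earlier in high light, LHCb4 had 9783, 6525, 7522 and 8343 CPM at HL_1h, against 11022, 12215, 10574 and 11833 CPM at ctrl_1h. At HL_2h it had 7741, 6483, 5940.0 and 8268 CPM, against 11697, 11822, 11798 and 11383 CPM at ctrl_2h. The high light libraries were below their controls at both times, with -0.53 ± 0.19 (SE, adjusted p = 0.0531) at 1 h and -0.82 ± 0.18 (SE, adjusted p = 4.64e-04) at 2 h. LHCb5 had 9056, 6382, 7285 and 7977 CPM at HL_1h, against 9411, 8348, 9216 and 10894 CPM at ctrl_1h. It had 7572, 6946, 6379 and 7205 CPM at HL_2h, against 8826, 9059, 9367 and 8720.3 CPM at ctrl_2h. The LHCb5 groups overlapped at 1 h and were apart at 2 h, with no call at either time, -0.47 ± 0.18 (SE, adjusted p = 0.0516) at 2 h. In high temperature LHCb4 had 10181, 10116, 10843 and 11301 CPM at HT_1h, 13645, 13314, 13281 and 11565 CPM at HT_2h and 13776, 11813, 11516 and 12164 CPM at HT_4h. LHCb5 had 8062, 7947, 7775 and 8566 CPM at HT_1h, 10122, 9511, 9574 and 7088 CPM at HT_2h and 9955, 8553, 8146 and 7993 CPM at HT_4h. Neither gene was called in heat, and at ctrl_0h they had 9559, 10723, 9591 and 9499.9 CPM (LHCb4) and 7911, 8113, 7669.5 and 7761 CPM (LHCb5).

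LHCb7 had 53.1, 58.6, 63.2 and 61.7 CPM at HL_1h, against 36.9, 44.7, 39.7 and 29.7 CPM at ctrl_1h. It had 58.1, 58.4, 53.4 and 64.9 CPM at HL_2h, against 38.6, 28.0, 26.6 and 29.4 CPM at ctrl_2h, and 46.7, 47.1, 45.3 and 51.4 CPM at HL_4h, against 22.5, 23.7, 15.7 and 23.3 CPM at ctrl_4h. At each time every high light library was above every control library. The changes were 0.62 ± 0.16 (SE, adjusted p = 0.00385) at 1 h, 0.82 ± 0.15 (SE, adjusted p = 4.03e-05) at 2 h and 0.85 ± 0.15 (SE, adjusted p = 4.03e-05) at 4 h. The ctrl_0h libraries had 56.0, 48.5, 66.8 and 49.6 CPM, and ctrl_4h differed from them by -1.39 ± 0.15 (SE, adjusted p = 3.51e-09). The later controls thus all lay below ctrl_0h, whereas the high light libraries overlapped ctrl_0h at each time. In heat it had 42.6, 40.4, 49.4 and 48.9 CPM at HT_1h, 43.4, 56.3, 41.1 and 66.3 CPM at HT_2h and 18.1, 19.2, 25.0 and 27.6 CPM at HT_4h. It was called up at HT_2h, with 0.77 ± 0.15 (SE, adjusted p = 5.58e-04), where no library overlapped the controls, and not at HT_4h, with -0.03 ± 0.16 (SE, adjusted p = 0.945).

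PsbO, PsbP and PsbQ are the extrinsic proteins that shield and stabilise the oxygen-evolving manganese cluster, and PsbR is a small protein that helps them bind. All 4 were called down at HL_2h and at HL_4h. PsbO (Sevir.5G172700) had 4456, 3267, 4792 and 3481 CPM at HL_4h, against 6973, 8167, 9098 and 8182 CPM at ctrl_4h, a change of -1.32 ± 0.19 (SE, adjusted p = 1.03e-06). PsbR (Sevir.6G029700) had 7433, 6802, 7178 and 7538 CPM at HL_4h, against 11219.8, 10536, 11018 and 11201 CPM at ctrl_4h, a change of -0.91 ± 0.12 (SE, adjusted p = 4.62e-07). In both genes the HL_4h libraries were all below the ctrl_4h libraries, and the 4 libraries of PsbR lay close together in both groups. PsbQ ranged over 1959.5 to 2606 CPM at HL_4h, against 3660.0 to 4681 CPM at ctrl_4h, and changed by -1.24 ± 0.18 (SE, adjusted p = 2.47e-06). PsbP ranged over 6544 to 8289 CPM at HL_4h, against 10715 to 14340.4 CPM at ctrl_4h, and changed by -1.18 ± 0.18 (SE, adjusted p = 4.29e-06). PsbP was the earliest of the class, with 10305, 9980.3, 9695 and 11325 CPM at HL_1h, against 12756, 13400.4, 13709 and 20442 CPM at ctrl_1h, a change of -0.62 ± 0.20 (SE, adjusted p = 0.0209) without overlap. Replicate D of ctrl_1h stood above the other controls.

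At 1 h PsbO had 7814, 5871, 6655 and 6419 CPM at HL_1h, against 8132, 6837, 7205 and 6741 CPM at ctrl_1h, and PsbR had 10327, 11077, 10598 and 9113 CPM, against 11540.1, 10068, 11817 and 9747 CPM. At 2 h PsbO had 6562, 5584, 4709 and 5297 CPM at HL_2h, against 7570.0, 8624, 8269 and 7394 CPM at ctrl_2h, and PsbR had 8515, 9711, 9771 and 7393 CPM, against 13072, 12088, 11747 and 12473 CPM. Both overlapped their controls at 1 h and lay below them at 2 h, by -0.63 ± 0.19 (SE, adjusted p = 0.00810) for PsbO and -0.60 ± 0.12 (SE, adjusted p = 2.67e-04) for PsbR. In heat PsbO had 7595, 6953, 6605 and 6082 CPM at HT_1h, 7481, 6459, 7159.8 and 5351 CPM at HT_2h and 8669, 7305, 6719 and 6954 CPM at HT_4h. PsbR had 12972, 12999.7, 12311 and 12826 CPM at HT_1h, 13339, 14366, 11746 and 13669 CPM at HT_2h and 12229, 11593, 13039 and 11911 CPM at HT_4h. At ctrl_0h, PsbO had 6050.3, 5923, 6187 and 6266 CPM and PsbR 11766, 11558, 12419 and 12516 CPM. PsbR lay above its controls at HT_1h and HT_4h, but none of the 4 genes was called in heat.

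Many small PSII subunits are single-helix proteins around the core, of which PsbW joins the core to the trimeric antenna. Of the 5 genes for small or unnamed subunits, PsbW_B, PsbX, PsbY and Sevir.1G214401, which the list calls unknown, were called down at HL_4h, and PsbW_A was not. PsbW_B (Sevir.5G340900) had 6342, 4857, 6379 and 5256 CPM at HL_4h, against 9039.7, 10778, 11037 and 10566 CPM at ctrl_4h. PsbW_A (Sevir.3G189600) had 1591, 1200.1, 2263 and 1393 CPM at HL_4h, against 1466, 2054, 2377 and 1955 CPM at ctrl_4h. The PsbW_B groups did not overlap, with a change of -1.17 ± 0.19 (SE, adjusted p = 7.44e-06). Those of PsbW_A did, with -0.59 ± 0.23 (SE, adjusted p = 0.0555). The difference between the copies was not tested. PsbX had 1979.9 to 3065 CPM at HL_4h, against 3501 to 5132 CPM at ctrl_4h, a change of -1.16 ± 0.20 (SE, adjusted p = 2.64e-05). Sevir.1G214401 had 4047 to 6016 CPM at HL_4h, against 5774 to 8501 CPM at ctrl_4h, and changed by -0.92 ± 0.19 (SE, adjusted p = 3.89e-04), while PsbY changed by -0.78 ± 0.21 (SE, adjusted p = 0.00501).

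At 1 h PsbW_B had 7858, 5452, 6359 and 7439.8 CPM at HL_1h, against 8030.2, 7732, 8813 and 8815 CPM at ctrl_1h, and at 2 h 5703, 5274, 4699 and 5395 CPM at HL_2h, against 9568, 9502, 9063 and 8103 CPM at ctrl_2h. PsbW_B thus overlapped its controls at HL_1h and was below them at HL_2h, by -0.90 ± 0.19 (SE, adjusted p = 2.53e-04). PsbW_A had 2246, 2377, 1981 and 2102 CPM at HL_1h, against 1876, 1750.1, 1669 and 1945 CPM at ctrl_1h, and 1915, 1891, 1731 and 1643 CPM at HL_2h, against 1639, 1771, 1861 and 1579.5 CPM at ctrl_2h. In PsbW_A all 4 HL_1h libraries were above the ctrl_1h libraries, at 0.27 ± 0.25 (SE, adjusted p = 0.519), and at 2 h the groups overlapped. High temperature values were 7749, 7767, 7509 and 8500.1 CPM at HT_1h, 11498, 9435, 10033 and 7099.6 CPM at HT_2h and 9386, 8324, 7314 and 8443 CPM at HT_4h for PsbW_B. For PsbW_A they were 1908, 1573, 1422 and 1351 CPM at HT_1h, 2192, 1982, 2217 and 1177 CPM at HT_2h and 2629, 1864, 1725 and 1671 CPM at HT_4h. The ctrl_0h libraries had 7973, 7756, 7511 and 7419 CPM of PsbW_B and 1469, 1302, 1716 and 1671 CPM of PsbW_A, and neither gene was called in heat.

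LHCa2, LHCa3 and LHCa4 belong to the belt of antenna proteins on PSI, and in Arabidopsis LHCa5 and LHCa6 join PSI to the NADH dehydrogenase-like complex. LHCa2, LHCa3, LHCa4 and LHCa6 were called down at HL_4h and LHCa5 was called up. LHCa4 (Sevir.6G164700) had 5663, 3898, 4761 and 3680.1 CPM at HL_4h, against 8296, 10688, 11609 and 9984 CPM at ctrl_4h. LHCa6 (Sevir.2G227200) had 103, 84.4, 56.2 and 64.1 CPM at HL_4h, against 88.3, 105, 140.3 and 87.0 CPM at ctrl_4h. LHCa4 did not overlap its controls, at -1.48 ± 0.23 (SE, adjusted p = 4.11e-06). LHCa6 did, and its change of -0.79 ± 0.30 (SE, adjusted p = 0.0475) was lost with total count scaling and without any of 5 single libraries. LHCa2 had 4566 to 7139 CPM at HL_4h, against 10755 to 13691 CPM at ctrl_4h, a change of -1.31 ± 0.22 (SE, adjusted p = 1.87e-05). LHCa3 had 4863 to 6367 CPM at HL_4h, against 9675 to 11568 CPM at ctrl_4h, a change of -1.17 ± 0.17 (SE, adjusted p = 1.17e-06).

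LHCa4 was already lower at the first time point. It had 5647, 2959, 3966 and 4713 CPM at HL_1h, against 6626, 8524, 6552 and 10314 CPM at ctrl_1h, and 3369, 2569, 2114 and 3746 CPM at HL_2h, against 6836, 7458, 7575 and 7019 CPM at ctrl_2h. At both times the high light libraries lay below the controls, with -0.95 ± 0.25 (SE, adjusted p = 0.00478) at 1 h and -1.40 ± 0.23 (SE, adjusted p = 8.70e-06) at 2 h. LHCa6 had 75.6, 34.9, 70.6 and 75.6 CPM at HL_1h, against 97.4, 139, 55.9 and 68.2 CPM at ctrl_1h, and 74.6, 47.9, 44.9 and 101 CPM at HL_2h, against 37.6, 68.0, 77.5 and 50.9 CPM at ctrl_2h. Its groups overlapped at both times. In heat LHCa4 had 5685, 5862, 7638 and 7202 CPM at HT_1h, 8619, 8578, 10077 and 7975 CPM at HT_2h and 11204, 9938, 9913 and 9645 CPM at HT_4h. LHCa6 had 52.8, 39.0, 88.8 and 46.5 CPM at HT_1h, 57.1, 70.6, 92.3 and 64.0 CPM at HT_2h and 141, 169, 143 and 153 CPM at HT_4h. At HT_4h all LHCa6 libraries were above the ctrl_4h libraries, but the change of 0.41 ± 0.29 (SE, adjusted p = 0.404) was not called. The ctrl_0h values were 5036, 6782, 4948 and 5147 CPM for LHCa4 and 78.5, 98.0, 57.6 and 58.3 CPM for LHCa6.

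LHCa5 (Sevir.1G337400) had 353, 395, 163 and 343 CPM at HL_4h, against 126, 121, 159 and 141 CPM at ctrl_4h, a change of 0.85 ± 0.27 (SE, adjusted p = 0.0163) with no overlap in CPM. It had 249.7, 148, 245 and 306 CPM at HL_1h, against 286, 428, 196 and 134 CPM at ctrl_1h, and 257, 204, 237 and 387 CPM at HL_2h, against 146, 200.0, 203 and 173 CPM at ctrl_2h. At 2 h the high light libraries were above the controls without a call. Replicate C of HL_4h was the lowest HL_4h library, close to the highest control, replicate C of ctrl_4h. With TMM factors of 1.13 for the former and 0.92 for the latter, the groups overlap on the scale of the fit. Heat libraries had 145, 134, 254 and 175 CPM at HT_1h, 144, 127, 204 and 239.8 CPM at HT_2h and 149, 271, 216 and 290.1 CPM at HT_4h, and ctrl_0h libraries 269, 401, 344 and 296 CPM. The call at HL_4h was lost without replicate A of HL_4h or of ctrl_4h, and with the second index code of the library (described with PsaN and YCF4) as a covariate, where the change was 0.37 with an adjusted p of 0.26 in edgeR's quasi-likelihood test.

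Among the PSI core subunits, PsaD and PsaE form the docking site of ferredoxin, PsaF that of plastocyanin, PsaG and PsaK lie at the antenna side, and PsaH, PsaL and PsaO are where LHCII binds. Of the 9 core genes, 8 were called down at HL_4h and 7 at HL_2h, and none at HL_1h. PsaN, a lumenal subunit, was the one not called. PsaG (Sevir.2G259000) had 4647, 2748, 4297 and 3396 CPM at HL_4h, against 12493, 14582, 19630.3 and 16896 CPM at ctrl_4h. PsaE2 (Sevir.2G123300) had 5579, 3829, 5492 and 4241 CPM at HL_4h, against 8572, 9243, 10883 and 10074 CPM at ctrl_4h. In both genes the groups were apart. PsaG was 5.20-fold lower, at -2.38 ± 0.26 (SE, adjusted p = 3.05e-09), and PsaE2 changed by -1.32 ± 0.18 (SE, adjusted p = 4.30e-07).

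At 1 h PsaG had 15818, 9252, 10436 and 12072 CPM at HL_1h, against 15651, 13701, 13698 and 18346 CPM at ctrl_1h, and at 2 h 8225, 5882, 4399 and 5675 CPM at HL_2h, against 13686, 16317, 14862 and 13362 CPM at ctrl_2h. The groups overlapped at 1 h, with -0.39 ± 0.26 (SE, adjusted p = 0.352), and were apart at 2 h, with -1.37 ± 0.25 (SE, adjusted p = 3.93e-05). Its heat libraries had 15079, 14202, 13017 and 12621 CPM at HT_1h, 16139.9, 13373, 17241 and 8918 CPM at HT_2h and 17458, 16584, 14206 and 15278 CPM at HT_4h, and its ctrl_0h libraries 10698, 11511, 10879 and 11162 CPM. PsaE2 had 9961, 7591, 8233 and 8528 CPM at HL_1h, against 9921, 8916, 8648 and 9146 CPM at ctrl_1h, and 7959.8, 7111, 5824 and 6352 CPM at HL_2h, against 8749, 9824, 9241 and 8676 CPM at ctrl_2h. Here too the groups met at 1 h and were apart at 2 h. For PsaE2, heat libraries had 9395, 9083, 9112 and 8556 CPM at HT_1h, 9556, 9361, 10292 and 7966 CPM at HT_2h and 12491, 11340.1, 10449 and 10215 CPM at HT_4h, and ctrl_0h libraries had 7652, 8031, 8012 and 8010.3 CPM.

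The other core genes followed PsaG in direction. PsaO had 8616, 5657, 8874 and 6343 CPM at HL_4h, against 17993, 21874, 27432 and 25432 CPM at ctrl_4h, a change of -1.96 ± 0.23 (SE, adjusted p = 2.41e-08). PsaL had 3850.5 to 5671 CPM at HL_4h, against 9847 to 12257 CPM at ctrl_4h, a change of -1.55 ± 0.17 (SE, adjusted p = 6.56e-09), and PsaK had 2378 to 3633 CPM, against 6083 to 8169 CPM, a change of -1.60 ± 0.21 (SE, adjusted p = 2.18e-07). PsaH had 3043 to 5009 CPM at HL_4h, against 6950.2 to 9929.9 CPM at ctrl_4h, a change of -1.50 ± 0.21 (SE, adjusted p = 7.05e-07). Each of these genes had its HL_4h libraries below its ctrl_4h libraries. The same was true of PsaD2, which changed by -1.40 ± 0.22 (SE, adjusted p = 5.48e-06), and of PsaF, which changed by -1.38 ± 0.25 (SE, adjusted p = 6.67e-05). At HL_2h PsaO changed by -1.43 ± 0.23 (SE, adjusted p = 6.07e-06) and PsaL by -0.70 ± 0.17 (SE, adjusted p = 0.00152), whereas PsaF, the core gene besides PsaN with no call at that time, changed by -0.58 ± 0.25 (SE, adjusted p = 0.0771).

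**Figure D3:**
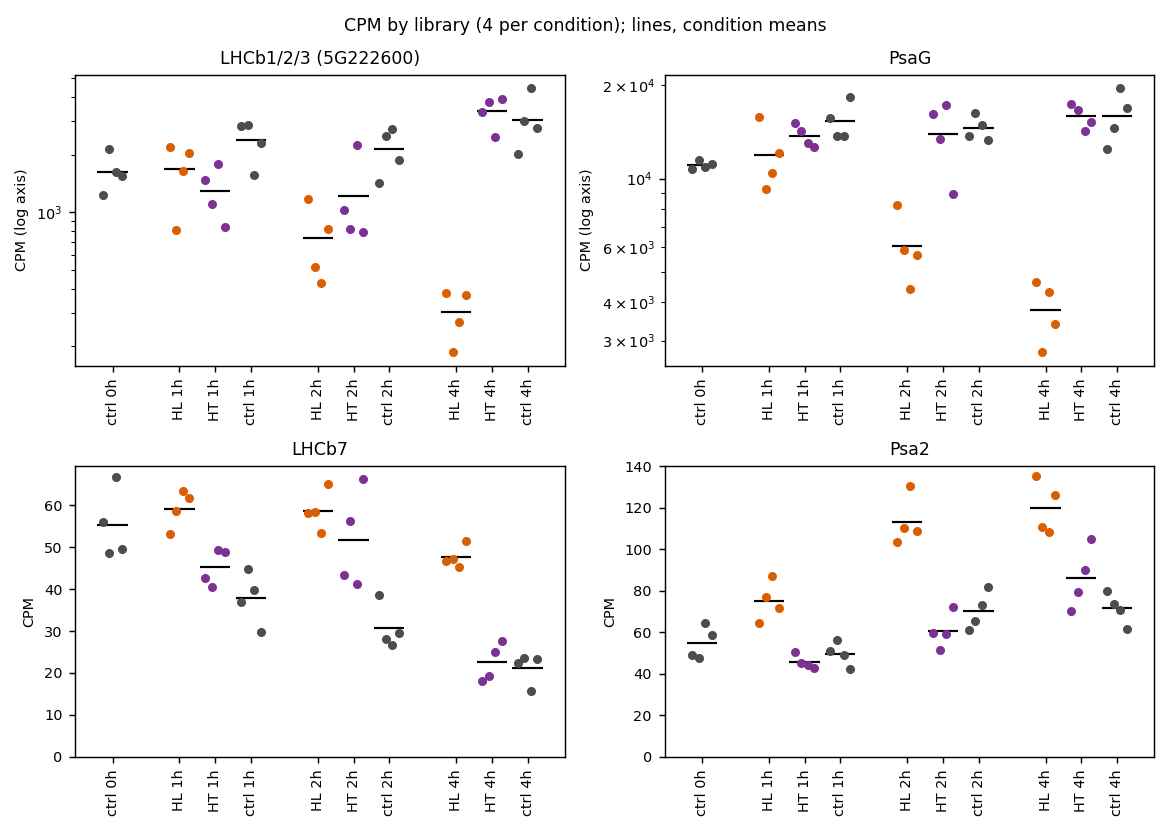
CPM by library and condition of LHCb1/2/3 (Sevir.5G222600) and PsaG on log axes and of LHCb7 and Psa2 on linear axes, each point 1 library and each line a condition mean. At HL_4h the LHCb1/2/3 libraries lie at 186 to 378 CPM and those at ctrl_4h at 2008 to 4471 CPM.

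Of the 7 PSI assembly factors, 1 was called up at HL_4h and none was called down at any time in high light, and their median log2 fold change at HL_4h was 0.23, beside -1.50 for the PSI core genes, a difference that was not tested. Psa2 (Sevir.6G182300), a thylakoid protein needed for PSI accumulation in Arabidopsis, was called up at each time. It had 64.6, 77.0, 87.3 and 71.7 CPM at HL_1h, against 51.2, 56.2, 49.0 and 42.4 CPM at ctrl_1h. At HL_2h it had 104, 110.5, 131 and 109 CPM, against 61.4, 65.6, 73.5 and 81.8 CPM at ctrl_2h, and at HL_4h 136, 111, 108 and 126 CPM, against 80.0, 74.0, 71.1 and 61.9 CPM at ctrl_4h. In CPM, no high light library overlapped the controls of its time. With TMM factors of 1.46 for replicate B of HL_4h and 0.92 for replicate C of ctrl_4h, the groups meet at 4 h on the scale of the fit. The changes were 0.61 ± 0.15 (SE, adjusted p = 0.00230) at 1 h, 0.57 ± 0.14 (SE, adjusted p = 0.00116) at 2 h and 0.44 ± 0.13 (SE, adjusted p = 0.0134) at 4 h, and the last was lost without replicate A of HL_4h or replicate D of ctrl_4h. In heat Psa2 had 50.6, 45.3, 44.3 and 43.0 CPM at HT_1h, 59.7, 51.4, 59.2 and 72.1 CPM at HT_2h and 70.5, 79.7, 90.2 and 105 CPM at HT_4h, with no call. The ctrl_0h libraries had 48.9, 47.8, 64.7 and 58.8 CPM.

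Psa3 (Sevir.2G422100), another PSI assembly factor, had 79.0, 70.5, 77.4 and 98.9 CPM at HL_1h, 90.3, 80.5, 89.6 and 154 CPM at HL_2h and 175, 129.6, 132 and 126 CPM at HL_4h. Its heat libraries had 35.8, 29.5, 62.1 and 49.5 CPM at HT_1h, 93.8, 98.3, 118 and 116 CPM at HT_2h and 98.0, 97.1, 118 and 90.9 CPM at HT_4h. Controls had 81.5, 110.0, 92.1 and 76.8 CPM at ctrl_0h, 63.3, 104, 67.1 and 122 CPM at ctrl_1h, 60.1, 65.9, 57.3 and 62.0 CPM at ctrl_2h and 72.8, 93.0, 64.5 and 85.2 CPM at ctrl_4h. Psa3 was thus below all ctrl_1h libraries at HT_1h, above all ctrl_2h libraries at HT_2h and HL_2h and above all ctrl_4h libraries at HL_4h. It changed by -0.998 ± 0.23 (SE, adjusted p = 0.00269) at HT_1h, 0.83 ± 0.23 (SE, adjusted p = 0.0129) at HT_2h and 0.26 ± 0.22 (SE, adjusted p = 0.513) at HT_4h. In high light it changed by 0.64 ± 0.22 (SE, adjusted p = 0.0265) at 2 h, which was lost without replicate D of HL_2h or without any of 3 single ctrl_2h libraries, and by 0.53 ± 0.22 (SE, adjusted p = 0.0746) at 4 h. The 4 h value was called with total count scaling, at 0.83, where the median over all genes was 0.38. On the scale of the fit the HL_4h and ctrl_4h groups overlap, with TMM factors of 1.46 and 0.98 for their replicates B. Psa3 was also called between the second index codes (described with YCF4), at -0.43 (AK2941 minus AK10751). Of the HL_4h libraries 3 have AK10751, and all ctrl_4h libraries have AK2941.

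PPD1 (Sevir.3G348100), named for an assembly factor in the thylakoid lumen, had the smallest change of its class at HL_4h. It had 53.9, 44.9, 36.3 and 67.7 CPM at HL_4h, against 42.3, 40.1, 44.7 and 33.3 CPM at ctrl_4h, at 0.02 ± 0.31 (SE, adjusted p = 0.971), and the groups overlapped. The earlier values were 17.7, 12.4, 17.5 and 13.2 CPM at HL_1h, against 27.0, 40.9, 19.6 and 10.8 CPM at ctrl_1h, and 22.8, 21.7, 25.7 and 39.8 CPM at HL_2h, against 8.52, 30.6, 29.5 and 22.6 CPM at ctrl_2h. It had 13.2, 16.1, 19.7 and 10.01 CPM at HT_1h, 29.5, 17.7, 34.3 and 31.6 CPM at HT_2h, 53.6, 52.0, 77.2 and 52.6 CPM at HT_4h and 9.64, 30.3, 19.0 and 24.5 CPM at ctrl_0h. At HT_4h all libraries were above ctrl_4h, without a call. HCF101, which delivers iron-sulfur clusters to PSI in Arabidopsis, changed by -0.19 ± 0.22 (SE, adjusted p = 0.587) at HL_4h, CEST/Y3IP1, a partner of the assembly protein Ycf3, by 0.23 ± 0.19 (SE, adjusted p = 0.400) and PTAC4, known as VIPP1 and needed for thylakoid membranes, by -0.03 ± 0.14 (SE, adjusted p = 0.920). None of the 3 was called at any time in high light or heat.

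The change of the high light effect with time was tested directly, as the log2 fold change at 4 h minus that at 1 h. Of the 39 genes, 13 were called lower and 0 higher, where 2.24% and 2.08% of all tested genes were called, and with total count scaling 12 were called lower and 2 higher. They included 8 of the 9 PSI core genes, 2 of 4 oxygen-evolving genes, and 1 each of the small PSII subunits, the LHCI and the major LHCII, with none of the minor antenna or the assembly factors. Sevir.5G222600 had a difference of -3.05 ± 0.54 (SE, adjusted p = 5.48e-04), PsaG of -1.99 ± 0.36 (SE, adjusted p = 6.48e-04) and PsaO of -1.48 ± 0.33 (SE, adjusted p = 0.00564). PsaL had -1.31 ± 0.25 (SE, adjusted p = 0.00110) and PsbO -1.23 ± 0.27 (SE, adjusted p = 0.00564), while PsbP, already called at 1 h, had -0.55 ± 0.26 (SE, adjusted p = 0.252). Without replicate A of HL_1h the count was 8, and in a fit of only the groups compared it was 3. Between 1 and 2 h and between 2 and 4 h no gene was called, where 0.959% and 0.0630% of all tested genes were called up and 0.798% and 0.0210% down.

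**Figure D4:**
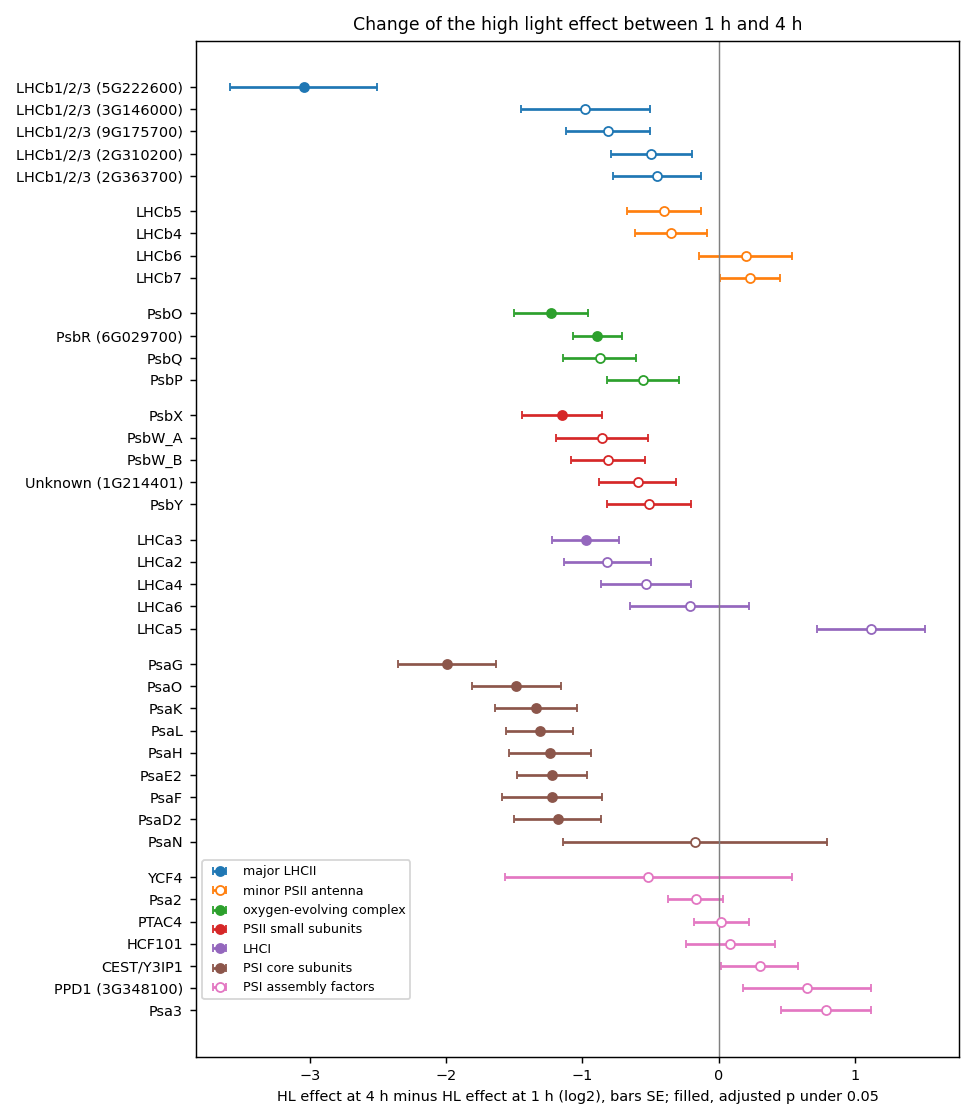
Change of the high light effect between 1 and 4 h (log2 fold change at 4 h minus that at 1 h) for each gene by role class, with bars for the SE and filled points for calls. Of 9 PSI core genes 8 are filled, with PsaG at -1.99, and no assembly factor is.

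In high temperature few photosystem genes were called, at each time a smaller share of them than of all tested genes. At HT_1h, 1 gene was called down and 0 up, where 5.41% and 5.07% of all tested genes were called. At HT_2h, 2 genes were called up and 1 down, against 5.38% and 5.37% of all tested genes. At HT_4h, 1 gene was called up and 0 down, against 4.22% and 5.60%. The called genes were Psa3 (HT_1h and HT_2h), LHCb7 and YCF4 (HT_2h) and PsaN (HT_4h), and 35 of the 39 genes were called at none of these times. The median log2 fold change of the 39 genes was -0.12 at HT_1h, 0.11 at HT_2h and -0.01 at HT_4h. The change of the heat effect with time was tested as for high light. From 1 to 2 h, 1 gene was called higher and 1 lower, against 1.11% and 1.22% of all tested genes, with Psa3 at 1.83 ± 0.32 (SE, adjusted p = 0.00372) and YCF4 at -3.69 ± 0.91 (SE, adjusted p = 0.0231). From 2 to 4 h, 1 was called higher and 1 lower, against 2.01% and 1.48%, with YCF4 at 3.93 ± 1.08 (SE, adjusted p = 0.0329) and LHCb7 at -0.80 ± 0.22 (SE, adjusted p = 0.0310). Both YCF4 values include HT_2h against ctrl_2h, where treatment and the numbers in the library names cannot be told apart (described with YCF4). Between 1 and 4 h, 1 was called higher and 0 lower, against 2.34% and 2.69%, which was Psa3 at 1.25 ± 0.32 (SE, adjusted p = 0.0178).

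PsaN (Sevir.7G290300) had 98.0, 318, 187 and 317 CPM at HT_4h, against 99.8, 43.7, 54.3 and 19.2 CPM at ctrl_4h. Replicate A of HT_4h was below the highest control, so that the groups overlapped, and the change of 2.00 ± 0.66 (SE, adjusted p = 0.0453) was lost without any of 6 single libraries. In high light PsaN had 39.4, 4.91, 60.5 and 86.0 CPM at HL_1h, 29.9, 21.7, 30.6 and 87.5 CPM at HL_2h and 16.2, 37.4, 7.71 and 47.2 CPM at HL_4h. The remaining libraries had 41.2, 42.9, 196 and 64.0 CPM at HT_1h, 59.5, 48.2, 99.4 and 142 CPM at HT_2h, 85.8, 259, 129 and 131 CPM at ctrl_0h, 83.1, 198, 32.0 and 6.55 CPM at ctrl_1h and 29.3, 64.6, 137 and 58.6 CPM at ctrl_2h. The libraries of 1 condition thus spread widely, as at ctrl_1h. With the second index code as a covariate the change at HT_4h was 0.91 with an adjusted p of 0.36 in edgeR's quasi-likelihood test.

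Set directly against high temperature, high light gave lower levels for most of the genes from 2 h on. HL_1h differed from HT_1h in 2 genes up and 2 down, where 14.0% and 13.0% of all tested genes were called. HL_2h differed from HT_2h in 3 genes up and 22 down, against 21.2% and 19.3%, and HL_4h from HT_4h in 1 gene up and 26 down, against 19.6% and 16.1%. Between HL_4h and HT_4h, PsaG differed by -2.27 ± 0.25 (SE, adjusted p = 5.52e-09) and Sevir.5G222600 by -3.68 ± 0.40 (SE, adjusted p = 2.95e-09), and in both genes all HL_4h libraries were below all HT_4h libraries. LHCb7 was the gene called up at 4 h, at 0.88 ± 0.15 (SE, adjusted p = 1.84e-05), and at 2 h its difference was 0.05 ± 0.15 (SE, adjusted p = 0.807). Psa2 was called up at 1 h, at 0.70 ± 0.15 (SE, adjusted p = 3.23e-04), and at 2 h, at 0.76 ± 0.14 (SE, adjusted p = 2.42e-05).

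Some of these genes changed over the same hours in unstressed leaves. Compared with ctrl_0h, 3 genes were called up and 0 down at ctrl_1h, where 3.92% and 2.07% of all tested genes were called. At ctrl_2h, 2 genes were called up and 3 down, against 4.81% and 3.76%. At ctrl_4h, 9 were called up and 5 down, against 19.7% and 17.6%, so that the calls at 4 h were about as frequent as among all genes. The later controls share the ctrl_0h libraries. The genes called up at ctrl_4h were 4 of the 5 LHCb1/2/3 genes, LHCb4, LHCa4, PsaO, Psa2 and PPD1, and those called down were LHCb7, LHCa5, HCF101, PTAC4 and YCF4. For YCF4, time and the numbers in the library names cannot be told apart (described below). None of the oxygen-evolving or small PSII genes was called at ctrl_4h.

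The widest rise in controls was that of the LHCb1/2/3 gene Sevir.3G146000, singled out after its values were seen. It had 837, 1263, 1106 and 1096 CPM at ctrl_0h, 3855, 3096, 2549 and 3487 CPM at ctrl_1h, 3235, 5133, 4882 and 3492 CPM at ctrl_2h and 5887, 8123, 9259.9 and 8008 CPM at ctrl_4h. Every later control library was above every ctrl_0h library, and the changes were 1.72 ± 0.33 (SE, adjusted p = 0.00173) at 1 h, 1.95 ± 0.33 (SE, adjusted p = 1.38e-04) at 2 h and 2.86 ± 0.35 (SE, adjusted p = 2.09e-08) at 4 h. In high light it had 3256, 1626, 2559 and 2447 CPM at HL_1h, 3365, 1988, 1721 and 2274 CPM at HL_2h and 4264, 2449, 4921 and 3197 CPM at HL_4h. Although called down against ctrl_4h, the HL_4h libraries were thus above all ctrl_0h libraries. HT_4h libraries had 8189.9, 7134, 5653 and 6309.7 CPM and overlapped those of ctrl_4h.

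Between ctrl_1h and ctrl_2h no gene was called, where 2.21% of all tested genes were called up and 4.11% down. Between ctrl_2h and ctrl_4h, 2 genes were called up (Sevir.3G146000 and LHCa6) and 2 down (LHCb7 and YCF4), against 8.47% and 9.05%. The limit on YCF4 holds here too. PsaG differed between ctrl_4h and ctrl_0h by 0.52 ± 0.24 (SE, adjusted p = 0.0891) and Sevir.5G222600 by 0.92 ± 0.36 (SE, adjusted p = 0.0445), Psa2 by 0.37 ± 0.14 (SE, adjusted p = 0.0338) and LHCa5 by -1.27 ± 0.27 (SE, adjusted p = 2.93e-04).

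The names of the libraries carry 1 of 2 second index codes, AK2941 or AK10751, and these are spread unevenly over the conditions. All ctrl_2h and ctrl_4h libraries have AK2941, while 3 of 4 libraries at HL_4h and at HT_4h have AK10751. The 3 tested libraries of HL_1h have AK2941, while 2 of 4 at ctrl_1h have AK10751. In a fit on reads recovered from the CPM of all 40 libraries with the code as a covariate, 7 of the 39 genes (17.9%) and 992 of 14302 tested genes (6.94%) were called between the codes. The difference, AK2941 minus AK10751, was 1.69 for YCF4, -1.32 for PsaN, -0.58 for LHCa5, -0.47 for LHCb6, -0.43 for Psa3, -0.385 for HCF101 and -0.30 for CEST/Y3IP1. That fit called 2 genes up and 29 down at HL_4h, with PsaG at -2.30, and it called PsaN down at HL_4h, at -2.47 with an adjusted p of 0.00270. Replicate C of HL_4h, which has the code of the ctrl_4h libraries, was below all of them in 26 of the 28 genes called down, against 84.5% of all genes called down at HL_4h. In all 3 genes called up it was above them, against 95.3% of all genes called up. Replicate C is 1 of the 4 HL_4h libraries from which these genes were called. Its place in CPM is thus partly set by the choice of genes and cannot show what the code contributed.

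YCF4 (Sevir.9G044685), a PSI assembly factor encoded in the chloroplast genome in other plants, followed these names closely. It had 1.98, 2.24, 5.92 and 7.08 CPM at HT_2h, against 41.6, 41.0, 36.7 and 41.0 CPM at ctrl_2h, a change of -3.27 ± 0.69 (SE, adjusted p = 0.00142) with no overlap. It had 2.92, 2.90, 3.66 and 2.06 CPM at ctrl_4h, against 73.7, 7.16, 35.9 and 33.8 CPM at ctrl_0h, a change of -3.74 ± 0.72 (SE, adjusted p = 7.58e-05). Its other libraries had 28.3, 4.71, 42.7 and 8.86 CPM at ctrl_1h, 37.0, 41.1, 38.7 and 6.14 CPM at HL_1h, 43.6, 46.5, 54.4 and 5.20 CPM at HL_2h, 4.19, 7.58, 1.49 and 5.72 CPM at HL_4h, 48.0, 53.2, 4.59 and 4.44 CPM at HT_1h and 2.56, 6.01, 6.34 and 5.03 CPM at HT_4h. At ctrl_0h, ctrl_1h, HL_1h, HL_2h and HT_1h the libraries of 1 condition thus split into high and low ones. With the limits chosen after these values were seen, the 17 AK2941 libraries numbered 150 to 180 in their names had 28.3 to 73.7 CPM, the 8 numbered 182 to 194 had 1.49 to 3.66 CPM, and the 15 AK10751 libraries, numbered 151 to 197, had 4.19 to 8.86 CPM. The part of library preparation in the YCF4 calls was not tested. With the code as a covariate the change at HT_2h was -2.37 with an adjusted p of 0.0148 in edgeR's quasi-likelihood test. That fit holds no term for the library number. The ctrl_2h libraries are numbered 174 to 177 and the HT_2h libraries 182 to 185. Number and treatment thus cannot be told apart in this contrast, nor in the called changes of the heat effect that include it. The ctrl_0h libraries are numbered 150 to 153 and the ctrl_4h libraries 186 to 189. Number and time thus cannot be told apart in the YCF4 calls at ctrl_4h.

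**Figure D5:**
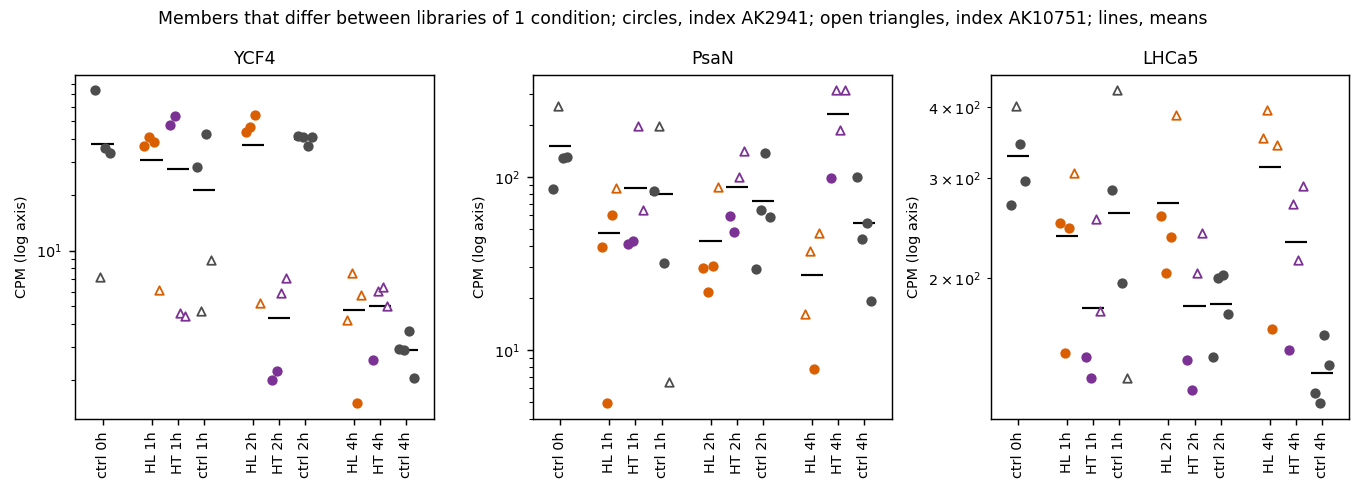
CPM of YCF4, PsaN and LHCa5 in each library by condition, with filled circles for libraries with the code AK2941 open triangles for AK10751 and lines for condition means, on log axes. YCF4 lies at 28.3 to 73.7 CPM in 17 AK2941 libraries, at 1.49 to 3.66 CPM in the other 8 and at 4.19 to 8.86 CPM in the 15 AK10751 libraries.

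The study's list labels 12 of the 39 genes as mesophyll and 12 as bundle sheath genes. At HL_4h, 9 of the 12 bundle sheath genes were called down and 1 up, with a median log2 fold change of -1.35, and 10 of the 12 mesophyll genes were called down and 1 up, with a median of -0.83. The difference between the labels was not tested. Of 5 bundle sheath markers 4 were called down at HL_4h, where 12.6% of all tested genes were, with log2 fold changes between -0.96 and -0.41, and their summed level was 7669 to 10511 CPM at HL_4h, against 11140.4 to 14048 CPM at ctrl_4h. Of 5 mesophyll markers 1 was called up, where 13.5% of all genes were, and 4 were not called. Their median log2 fold change at HL_4h was 0.29, and 1 of the 5 was below 0, at -0.31. Their sum was 10185 to 14472 CPM at HL_4h, against 7961 to 9475 CPM at ctrl_4h. The sums of both marker lists are scaled by total counts, under which most HL_4h levels stand higher against ctrl_4h than under TMM. The part of the marker genes in the changes of the photosystem genes was not tested.

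Other genes of the light reactions from the same pathway list were counted at HL_4h, where 13.5% of all tested genes were called up and 12.6% down. Of 41 genes for PSII assembly and repair, 16 were called up and 6 down, and of 12 photoprotection genes 9 up and 0 down. The cytochrome b6f list had 2 of 12 up and 1 down, the ATP synthase 1 of 4 up and 1 down, and the NDH complex 3 of 32 up and 10 down. Ferredoxin genes had 2 of 10 up and 1 down, PGRL/PGR5 0 of 3 up and 2 down, and state transition genes 1 of 4 up and 1 down. These are counts and the lists were not tested against each other.

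The 6 listed genes below the filter were PsbZ (Sevir.9G049100), PsbI (Sevir.1G210200), a second PsbR (Sevir.2G034900), a second PPD1 (Sevir.9G296100), PYG7 (Sevir.2G319700) and PsaJ (Sevir.6G242900). PsbZ came nearest to the filter, with 10 or more counts in 3 libraries and 42 at most. Among the genes that passed, YCF4 had 10 or more counts in the fewest libraries, 36, and 262 at most. The other 5 listed genes below the filter were at 0 counts in every library. A count of 0 in 1 library alone allows an expected count of up to 3. PsbZ, PsbI and PsaJ are encoded in the chloroplast genome in other plants.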

How the data were processed

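Leaf RNA of 10 conditions was sequenced from QuantSeq 3′ libraries. Per the methods and the labels, the authors used Trim Galore 0.6.2 for trimming and Salmon 1.1.0 for quantification on v2 transcripts, and tested counts with DESeq2. The deposited count table holds reads per gene as whole numbers. One of its 40 columns was not used. The deposited files of single libraries hold CPM, which the authors call TPM although no gene length enters. Whole reads (within 0.02) were recovered for 94.5 to 95.9% of their values, and edgeR on these called 1911 of 14302 genes up and 1789 down at HL_4h.

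Genes with 10 or more counts in 4 or more libraries were tested in 1 fit over the 10 conditions with edgeR 4.0.16 (R 4.3.3), TMM scaling, the quasi-likelihood test and Benjamini-Hochberg adjustment over all tested genes. Two-sided tests were used throughout. The scripts were tested on simulated data. DESeq2 1.42.0, limma 3.58.1 on log2(CPM + 1) and log2(CPM + 5), other scalings and filters, index and replicate terms, fits of only the groups compared and the removal of single libraries were alternatives. Values in every library are given for the gene with the widest and the gene with the smallest change at HL_4h in each role class, for those called up in high light and for those called in heat. Genes and lists were chosen with earlier results of these data known. Per the methods, the 4 replicates of a condition were biological, each with segments from 2 plants.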

Additional observations from a re-analysis of the deposited data

Results flagged for a closer look

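In 24 of 390 groups of 4 libraries (6.15%), 1 library stood apart from the others by more than Dixon's 95% critical value. Chance alone gives about 1 in 20. In high light, the libraries standing apart were Psa3 at HL_2h replicate D (154 CPM, high) and at HL_4h replicate A (175 CPM, high), PsaH at HL_4h replicate A (5009 CPM, high), LHCa6 at HL_1h replicate B (34.9 CPM, low), YCF4 at HL_1h replicate D (6.14 CPM, low) and PsaN at HL_2h replicate D (87.5 CPM, high). In high temperature they were Sevir.5G222600 and LHCb6 at HT_2h replicate C (2240.1 and 10215 CPM, high), Sevir.2G310200 at HT_4h replicate A (32246 CPM, high) and PPD1 at HT_4h replicate C (77.2 CPM, high). PsaO (14452 CPM, low) and CEST/Y3IP1 (72.7 CPM, high) stood apart at HT_2h replicate D, PsaN at HT_1h replicate C (196 CPM, high) and PTAC4 at HT_1h replicate B (147 CPM, high).

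Among control libraries, replicate B of ctrl_0h was high for LHCb4 (10723 CPM), LHCb6 (9084 CPM) and LHCa4 (6782 CPM), and replicate A of ctrl_0h was low for PsaE2 (7652 CPM) and HCF101 (109.7 CPM). Replicate D of ctrl_1h was high for PsbP (20442 CPM) and PsbY (7906 CPM). YCF4 at ctrl_2h replicate C (36.7 CPM), LHCb7 at ctrl_4h replicate C (15.7 CPM) and Sevir.2G310200 at ctrl_4h replicate A (29892 CPM) were low.

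The effect of high light differed between 4 h and 1 h in 13 genes by edgeR's quasi-likelihood test of the difference. On the log2 scale, 4 h minus 1 h, it was -3.05 for Sevir.5G222600, -1.99 for PsaG, -1.48 for PsaO, -1.34 for PsaK, -1.31 for PsaL, -1.24 for PsaH, -1.22 for PsaE2, -1.22 for PsaF and -1.18 for PsaD2. It was -1.23 for PsbO, -1.15 for PsbX, -0.98 for LHCa3 and -0.89 for PsbR. The effect of high temperature differed between 2 h and 1 h for Psa3 (1.83) and YCF4 (-3.69), between 4 h and 2 h for LHCb7 (-0.80) and YCF4 (3.93), and between 4 h and 1 h for Psa3 (1.25). For YCF4, treatment and library number cannot be told apart in these contrasts.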

How the results depend on the processing

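No called change of a gene turned its direction under any alternative. Of 8775 values of single genes under the alternatives, 402 had the other sign, and 0 of these were called in either fit. With total counts HCF101 was at 0.13 and PTAC4 at 0.29 at HL_4h, and Sevir.2G310200 at 0.03 at HL_2h, and with the index code PPD1 was at -0.23 at HL_4h. The median of the 39 genes at HT_4h, -0.01, was 0.09 with total counts and 0.10 with limma. Counts of genes called moved by more than 1.5 times in 41 of 233 cases, spread over all alternatives except relative log expression factors and reads recovered from all libraries, and in 53 of 227 cases when a library was left out. The causes were not tested. With fits of only the groups compared, 0 genes were called up (2 in the fit of all groups) and 0 down (3) at HL_1h, 3 were called in the change of the high light effect between 4 and 1 h (13), 2 at HT_4h (1), 10 at ctrl_2h against ctrl_0h (5), 2 at HL_1h against HT_1h (4) and 1 in the change of the heat effect from 1 to 2 h (2). Limma with either pseudocount called 5 genes up at HL_4h (3), 5 down at HL_1h (3), 2 at HT_1h (1), 1 at ctrl_2h against ctrl_1h (0), 7 at HL_1h against HT_1h (4) and 1 in the changes of the heat effect from 1 to 2 h and from 2 to 4 h (2 each). With 1 added it called 0 at HT_4h, and with 5 added 2 in the change of the high light effect from 1 to 2 h (0). Limma also called 1 higher and total count scaling 2 higher in the change of the high light effect between 4 and 1 h (0). Total count scaling called 5 up at HL_4h, 2 at HT_1h, 1 at ctrl_2h against ctrl_1h, and 1 and 2 in the changes of the heat effect from 2 to 4 h and from 1 to 4 h. DESeq2 called 5 at ctrl_1h against ctrl_0h (3), 1 at ctrl_2h against ctrl_1h, 1 each in the changes of the high light effect from 1 to 2 h and from 2 to 4 h, and 2 in that of heat from 1 to 4 h (1). Without a filter, 1 was called in the change of the high light effect and 1 in that of the heat effect from 2 to 4 h, and 2 in that of heat from 1 to 4 h. With the index code as a covariate, 0 were called at HT_4h, 7 at HL_1h against HT_1h and 1 in the change of the heat effect from 1 to 2 h. Replicates C and D of ctrl_0h differed less than the other 59 pairs (1.36 against 2.36 or more, chi-square per gene at equal depth). Summed as 1 library, a choice made after seeing the data, they left 3 of 5 calls at ctrl_2h against ctrl_0h.

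The letters A to D did not pair the libraries, with correlations of deviations between -0.222 and 0.245, and at most 2 of 4 libraries were most like their own letter. On reads recovered from all 40 libraries, 3 genes were called up and 28 down at HL_4h with a replicate block and likewise without it, 23 down with it and 24 without it at HL_2h, 15 and 15 in the change of the high light effect, 13 and 14 at ctrl_4h against ctrl_0h and 0 and 1 at HT_4h.

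Leaving out 1 library at a time gave 2 to 2 genes called up at HL_1h, 2 to 3 at HL_2h and 1 to 3 at HL_4h (1 without replicate A of HL_4h), and 0 to 5 down at HL_1h, 18 to 24 at HL_2h and 25 to 29 at HL_4h. It gave 8 to 15 in the change of the high light effect between 4 and 1 h, 1 to 1 at HT_1h, 3 to 5 at HT_2h (5 without replicate C of HT_2h) and 0 to 1 at HT_4h. Controls gave 2 to 5 at 1 h, 2 to 4 at 2 h and 9 to 15 at 4 h (9 without replicate C of ctrl_4h) against 0 h, 0 to 1 for 2 h against 1 h and 1 to 4 for 4 h against 2 h. High light against heat gave 1 to 5 at 1 h, 20 to 27 at 2 h and 27 to 31 at 4 h, and the change of the heat effect 1 to 2 from 1 to 2 h, 0 to 2 from 2 to 4 h and 1 to 3 from 1 to 4 h. Of 4797 values of single genes under the other alternatives, 60 lost and 97 gained a call.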
